A study of Mus musculus with 4 samples.

Results

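The Hippo pathway was followed here through 10 genes chosen by name: Nf2, Amot, Amotl2 and Lats2, which act on or within the inhibitory branch, the coactivators Yap1 and Wwtr1 (whose protein is TAZ), the DNA-binding partners Tead1 and Tead4, and the target genes Ctgf and Cyr61. All 10 were found among the 25437 gene names of the 4 libraries, Ctgf and Cyr61 under these older symbols of Ccn2 and Ccn1. The libraries were made from whole wildtype mouse embryos of the strain B6C3F1/J by single-cell RNA sequencing on BD Rhapsody microwell cartridges, and the study's title places them in embryonic diapause and peri-implantation development. EDG7.5, EDG9.5 and Reactivated each pooled 200 to 250 blastocysts flushed from the uterus, and E5.5 pooled 50 embryos that were dissected from implantation sites. The Reactivated library carries the EDG9.5 label with 30 h of E2 (the usual abbreviation of estradiol) added. With 1 library per stage, no difference between stages has a replicate check, no p-value is given, and differences of stage cannot be told apart from those of collection or library.

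YAP and TAZ are coactivators that reach DNA mainly through TEAD proteins. When the Hippo pathway is active, the kinases MST1/2 and LATS1/2, helped by the scaffold NF2 (merlin), phosphorylate YAP and TAZ and hold them outside the nucleus; AMOT and AMOTL2, members of the angiomotin family, bind YAP and LATS at cell junctions and add to this restraint. In the mouse blastocyst, TEAD4 with nuclear YAP turns on the trophectoderm genes Cdx2 and Gata3 in outer cells, while AMOT, NF2 and LATS keep YAP out of the nucleus of inner cells. CTGF and CYR61 are secreted matrix-associated proteins whose genes are standard readouts of YAP/TAZ and TEAD activity, and Amotl2 and Lats2 are both targets and inhibitors, forming a feedback. Much of this control acts on protein location and phosphorylation, which RNA levels do not measure.

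Cells were grouped into trophoblast, endoderm (primitive endoderm and the layers that come from it) and epiblast by marker genes, after clustering each library with the 10 genes kept out of the genes used. A library held between 163 and 3628 cells of a lineage, with a median of 3571 to 14262 molecule counts (UMIs) per cell. The epiblast marker list summed to 3829 to 8064 CPM in epiblast against at most 1029 CPM elsewhere, the endoderm list to 16398 to 20155 CPM in endoderm against at most 2516, and the trophoblast list to 8020 to 10130 CPM in trophoblast against at most 948. CPM scales a gene's UMIs to all those summed over a lineage within 1 library, so CPM alone does not tell fewer cells expressing a gene from less RNA per cell. The share of cells with a UMI of each gene, which also depends on depth, is not reported here. Markers of other cell types were low, with an erythroid list at 1.84 CPM or less and a decidual stroma list at 88.7 CPM or less. An immune list reached 287 CPM and an endothelial list 251 CPM, both in EDG7.5 epiblast and mostly from Laptm5 and Pecam1. A uterine epithelium list reached 2115 CPM in EDG7.5 trophoblast, of which 1558 CPM were Epcam, a gene of embryonic epithelia too, 303 CPM Msx1 and 245 CPM Lif, with Muc1 at 7.89 CPM, Foxa2 at 0.607 CPM and Wnt7a, Krt5 and Calb1 at 0. In trophoblast of the later stages Msx1 had 257, 150 and 10.3 CPM and Lif 301, 15.1 and 5.45 CPM, taking EDG9.5 first, Reactivated next and E5.5 last, and the part of uterine RNA in the trophoblast values was not tested. Intervals are 95% and cover counting error only. A ratio is called past the fold where log2((CPM + 10)/(CPM + 10)) is at least 1 in size, that is 2-fold on this scale, and a gene is measured where its 2 sums hold at least 10 UMIs.

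On GRCm38.p6, Yap1 lies on chromosome 9 (7931999 to 8004638), Amotl2 on the same chromosome (102717091 to 102733418), and Wwtr1 (57455644 to 57575910) and Cyr61 (145646971 to 145649985) on chromosome 3. Tead1 is on chromosome 7 (112679356 to 112906784), Tead4 on 6 (128227143 to 128300813), Lats2 on 14 (57689662 to 57746212), Nf2 on 11 (4757639 to 4849544) and Ctgf on 10 (24595442 to 24598683). Amot is on the X chromosome (145446424 to 145505966). Values below are in CPM per gene, with no correction for transcript length, and are compared within a gene.

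**Figure D1:**
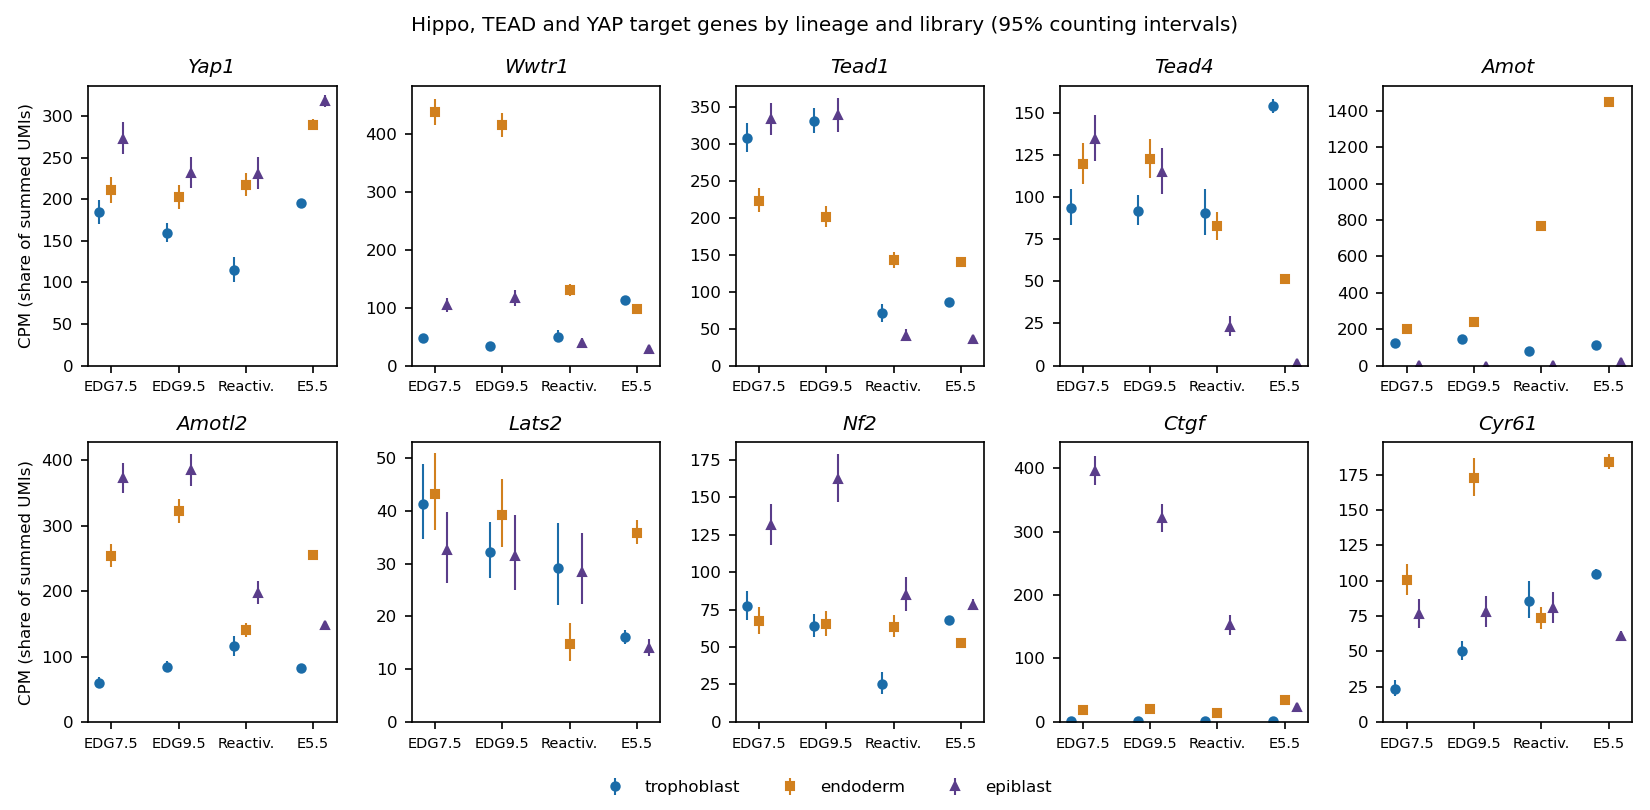
Level of each of the 10 genes (y axis, CPM, linear from 0) in trophoblast, endoderm and epiblast (symbols) of the 4 libraries (x axis, in order of stage label); bars are 95% counting intervals and each symbol is 1 library. Amot climbs to 1448 CPM in E5.5 endoderm and stays under 20 CPM in epiblast, Ctgf is near 0 in trophoblast throughout, and Tead1 drops between EDG9.5 and Reactivated in trophoblast and epiblast.

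Amot had the widest range of the 10 genes over the 12 sums of lineage and library, being an endoderm and trophoblast gene that was almost unread in epiblast. In endoderm, Amot had 201 CPM (186 to 217) in EDG7.5 and 242 (227 to 258) in EDG9.5. It had 766 CPM (741 to 791) in endoderm of Reactivated, and E5.5 endoderm had 1448 (1434 to 1463). In trophoblast it had 123 CPM in EDG7.5 and 144 in EDG9.5, then 80.4 in Reactivated and 114 in E5.5. Epiblast had 7 UMIs of Amot (2.45 CPM) in EDG7.5 and 1 UMI (0.393 CPM) in EDG9.5, then 5 UMIs (1.95 CPM) in Reactivated and 420 UMIs (18.1 CPM) in E5.5. No library's epiblast overlapped its endoderm or trophoblast. Endoderm over epiblast, the ratio was 82.0 (39.6 to 205) in EDG7.5, 393 (168 to 1210) in Reactivated, while E5.5 had 79.9 (72.6 to 88.2); in EDG9.5, against 1 epiblast UMI, it was 615 (110 to 24336).

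The E5.5 epiblast value of Amot stood at 1.25% of the endoderm level of the same library. Visceral endoderm is the epithelium that covers the epiblast. The 10 genes of its list were read in E5.5 epiblast at 0.357% (Cubn) to 6.56% (Lrp2) of their endoderm level. Most lay below Amot, such as Ttr at 0.548% and Spink3 at 0.711%, while Rbp4 (1.496%), Apoe (4.81%) and Lrp2 lay above. Within E5.5 epiblast, Amot had 13.4 CPM (11.3 to 15.7) in cluster 0 and 24.3 CPM (21.3 to 27.7) in cluster 2. Their visceral endoderm lists summed to 251 and 226 CPM. The part of endoderm RNA in the E5.5 epiblast value was not tested, and no Amot expression is called from it. The same holds for the log2 ratio of 1.44 for Amot in E5.5 over EDG9.5 epiblast, which sets 420 UMIs against 1, and of 1.23 in E5.5 over Reactivated epiblast, against 5.

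Between libraries, Amot was the only one of the 10 genes past the fold upwards in Reactivated over EDG9.5 in any lineage, at 3.16-fold (2.94 to 3.41) in endoderm. In E5.5 over EDG9.5 endoderm it was 5.98-fold higher (5.60 to 6.40). The Reactivated and E5.5 endoderm libraries also held more visceral endoderm RNA, with Cubn at 1447 CPM in Reactivated and 2053 in E5.5, against 165 CPM in EDG9.5. The part of this change in composition in the ratio of Amot was not tested.

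Endoderm clusters differed widely in Amot. In Reactivated it had 1210 CPM in cluster 8 (51 cells, led by Irs4, Pga5 and Ttr), 1029 in cluster 4 (103 cells, Has2 and Aqp8), 489 in cluster 3 (84 cells, Col3a1) and 311 in cluster 6 (65 cells, led by Prss35 and the laminin genes Lamc1 and Lama1). Amot itself stood among the 10 top genes of cluster 4 although it had no part in the clustering. The lowest of these was close to the 306 CPM of cluster 7 in EDG9.5 (107 cells, Cubn and Spink3), which was the highest of the EDG9.5 endoderm clusters. Cluster 3 of Reactivated was led by the decidual stroma markers Col3a1, Col1a2, Dcn and Col1a1 and its stroma list summed to 302 CPM.

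In E5.5 endoderm the spread of Amot was wider still, and the cluster with the lowest Amot had the highest levels of the target genes. Cluster 7 (672 cells, led by Cer1 and Lhx1, genes of the anterior and distal visceral endoderm) had 3063 CPM of Amot (3019 to 3108), and clusters 11, 9 and 10 had 1510, 1026 and 689 CPM. Cluster 6 (344 cells, led by Lama1 and Fst, with a parietal endoderm list at 41794 CPM) had 110 CPM (97.1 to 124). In this cluster Cyr61 had 597 CPM (566 to 628), against 127 to 194 CPM in the other 4. Ctgf had 166 CPM (150 to 183) in cluster 6 and 18.3 to 28.0 CPM in the others, and Amotl2 503 CPM (476 to 532) in cluster 6 and 223 to 262 CPM in the others. Wwtr1, Tead1 and Lats2 were also highest there, at 190, 275 and 65.0 CPM. A YAP/TEAD target signature that holds none of the 10 genes summed to 937 CPM in cluster 6 and to 213 to 361 CPM in the others. Immediate early genes, which rise during cell dissociation, summed to 1012 CPM in cluster 6 and 645 to 864 in the others. The median depth was 6718.5 UMIs per cell in cluster 6 against 8561 to 9408. The part of either was not tested. In Reactivated endoderm the cluster with the lowest Amot, cluster 6, likewise had the highest Cyr61, at 109 CPM. The EDG libraries went the other way for Cyr61. Cluster 7 of EDG9.5 had the highest Amot and the highest Cyr61 of its endoderm clusters, at 306 and 229 CPM. Cluster 2 of EDG7.5, with 18 cells, did too, at 440 and 223 CPM.

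**Figure D2:**
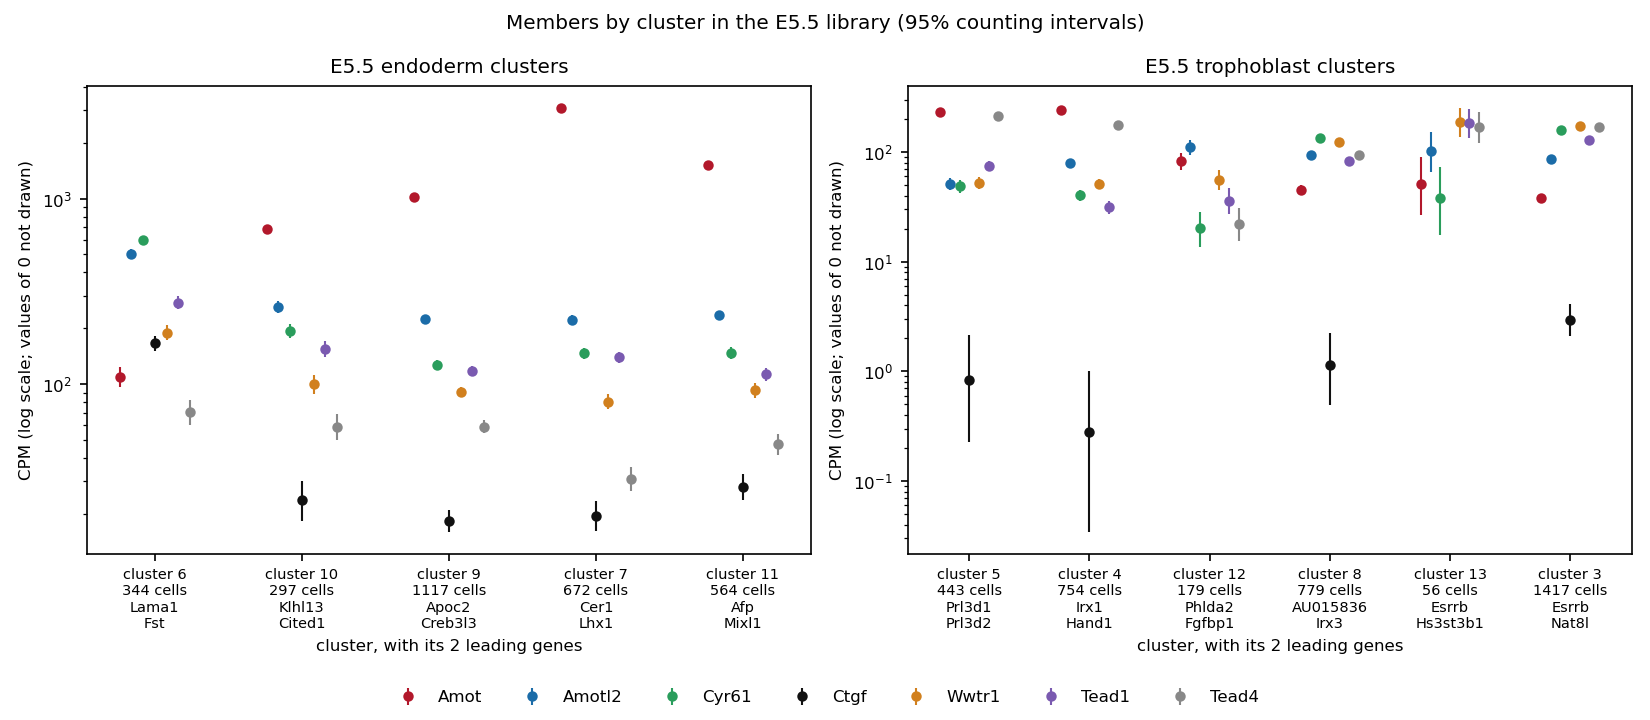
Level of 7 of the genes (colours; y axis, CPM on a log scale, values of 0 not drawn) in the endoderm clusters (left, ordered by the parietal endoderm list) and trophoblast clusters (right, ordered by the giant cell and ectoplacental list) of the E5.5 library; bars are 95% counting intervals. Cluster 6, at the far left of the endoderm, combines the lowest Amot with the highest Cyr61, Ctgf and Amotl2, and the Prl3d1 and Hand1 clusters of trophoblast combine higher Amot with lower Cyr61 and Wwtr1 than the Esrrb cluster 3.

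E5.5 trophoblast clusters differed in Amot too. Cluster 3 (1417 cells, led by Esrrb, a transcription factor of extraembryonic ectoderm) had 38.2 CPM of Amot and cluster 8 (779 cells, Irx3 and Id2) had 44.9 CPM. Cluster 4 (754 cells, Irx1 and Hand1) had 244 CPM and cluster 5 (443 cells, led by the giant cell lactogens Prl3d1 and Prl3d2) had 231 CPM. The small clusters 12 (179 cells) and 13 (56 cells, Esrrb) had 82.7 and 51.2 CPM. Cyr61 had 157 CPM in cluster 3, 134 in cluster 8, 40.3 in cluster 4 and 48.6 in cluster 5, and it was also low in clusters 12 and 13, at 20.2 and 38.4 CPM, where Amot was not high. Wwtr1 had 173 CPM in cluster 3, 123 in cluster 8, 51.0 in cluster 4, 52.0 in cluster 5 and 56.0 in cluster 12, and its highest value, 188 CPM (136 to 252), was in cluster 13, where Cyr61 was low. Unlike in E5.5 endoderm, the target signature without the 10 genes was highest in the clusters with the most Amot, at 505 CPM in cluster 4 and 526 in cluster 5, against 130 to 305 CPM in the other 4. Over all E5.5 trophoblast, 1 gene, Crim1, gave 172 of the 348 CPM of this signature, and 5 of its 18 genes reached 20 CPM. The sum is therefore not read as a change of the whole signature. The immediate early list was also highest in these clusters, at 3315 CPM in cluster 4 and 3557 in cluster 5, against 1228 to 2025 CPM in the others. The part of the immediate early list was not tested. The endothelial list, which holds Cdh5 and Pecam1, summed to 1041 CPM in cluster 5 and to 351 CPM or less in the other trophoblast clusters. Ctgf did not exceed 3.0 CPM in any E5.5 trophoblast cluster.

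Amotl2, the other angiomotin, was higher in endoderm and epiblast than in trophoblast of every library, with overlapping intervals only between endoderm and trophoblast of Reactivated. Trophoblast had 59.2 CPM in EDG7.5 and 84.3 in EDG9.5, then 116 in Reactivated and 82.5 in E5.5. In endoderm the values were 254 CPM in EDG7.5 and 323 in EDG9.5, then 141 in Reactivated and 255 in E5.5, so that Reactivated was the low library. Epiblast had 372 CPM in EDG7.5 and 385 in EDG9.5, then 198 in Reactivated and 148 in E5.5, with both later libraries below both EDG libraries. The log2 ratio of Reactivated over EDG9.5 was -1.14 in endoderm and that of E5.5 over EDG9.5 was -1.32 in epiblast. Scaling by TMM factors gave -0.79 for the first of these.

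Nf2, whose protein merlin activates LATS, was highest in epiblast of all 4 libraries. Epiblast had 131 CPM in EDG7.5 and 162 in EDG9.5, then 85.1 in Reactivated and 78.2 in E5.5. Endoderm stayed between 52.9 and 67.2 CPM. Trophoblast had 77.4 CPM in EDG7.5 and 64.3 in EDG9.5, then 25.1 in Reactivated and 68.0 in E5.5, and the Reactivated value, from 50 UMIs, was 2.56 times lower than EDG9.5 (1.89 to 3.53) and E5.5 was 2.71-fold higher than Reactivated (2.05 to 3.66). Keeping only cells below 10% mitochondrial UMIs, the log2 ratio of Reactivated over EDG9.5 trophoblast was -0.93, against -1.08 with all cells.

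Lats2, the kinase that phosphorylates YAP and TAZ, had few counts, with 58 to 972 UMIs per sum. Its levels ran from 14.0 CPM in E5.5 epiblast to 43.3 CPM in EDG7.5 endoderm, and it passed the fold in no comparison. Lats2 shares 2955 of its 6971 exon bases with a gene model on the same strand in the GENCODE M21 annotation. The deposited counts do not list that model in any library. The annotation used for counting was not given, so the Lats2 counts are uncertain.

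Yap1 varied least of the 10 genes, by 2.77-fold over the 12 sums. Trophoblast had 184 CPM in EDG7.5 and 160 in EDG9.5, then 115 in Reactivated and 196 in E5.5. Endoderm had 211 CPM in EDG7.5 and 203 in EDG9.5, then 217 in Reactivated and 290 in E5.5, and epiblast 273 in EDG7.5 and 232 in EDG9.5, then 231 in Reactivated and 318 in E5.5. No Yap1 ratio passed the fold, between libraries or between lineages.

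Wwtr1 was lower in E5.5 than in EDG9.5 in endoderm and epiblast and higher in trophoblast. In endoderm it had 438 CPM (416 to 461) in EDG7.5 and 415 (395 to 436) in EDG9.5, then 130 (120 to 141) in Reactivated, while E5.5 had 98.7 (95.03 to 103). Epiblast likewise had 104 CPM in EDG7.5 and 116 in EDG9.5, then 39.8 in Reactivated and 29.4 in E5.5. In trophoblast E5.5 was instead the high library, with 47.0 CPM in EDG7.5 and 33.8 in EDG9.5, then 50.2 in Reactivated and 113 (110 to 117) in E5.5, and EDG7.5 and Reactivated overlapped. E5.5 over EDG9.5, the gene was 4.20 times lower (3.95 to 4.48) in endoderm, 3.96 times lower (3.44 to 4.55) in epiblast and 3.35-fold higher (2.85 to 3.97) in trophoblast. Trophoblast was therefore below epiblast in EDG9.5, at 33.8 against 116 CPM, and above it in E5.5, at 113 against 29.4 CPM, with no overlap of the intervals in either library. Endoderm was above epiblast in all 4 libraries, by log2 1.47 to 1.97. The E5.5 trophoblast value was uneven between clusters. Clusters 3, 8 and 13 had 173, 123 and 188 CPM of Wwtr1, and clusters 4, 5 and 12 had 51.0, 52.0 and 56.0 CPM. The part of cluster composition in the trophoblast ratio was not tested.

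Both TEAD genes had much lower shares in Reactivated and E5.5 epiblast than in EDG9.5 epiblast. Tead1 in epiblast had 333 CPM in EDG7.5 and 338 in EDG9.5, then 40.6 in Reactivated and 36.7 in E5.5. That is 8.33 times lower (6.79 to 10.3) in Reactivated than in EDG9.5 and 9.22 times lower (8.38 to 10.2) in E5.5 than in EDG9.5. In trophoblast it had 308 CPM in EDG7.5 and 331 in EDG9.5, then 70.8 in Reactivated and 86.0 in E5.5. In endoderm it stayed within the fold, with 223 CPM in EDG7.5 and 202 in EDG9.5, then 142 in Reactivated and 140 in E5.5. Reactivated and E5.5 endoderm were thus above epiblast for Tead1 by log2 1.59 and 1.68, while in EDG7.5 and EDG9.5 endoderm was below epiblast without passing the fold. With each cell thinned to 1000 UMIs, the log2 ratio of Reactivated over EDG9.5 epiblast was -3.42, against -2.78 with all UMIs, and that of Reactivated endoderm over epiblast was 2.40, against 1.59.

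Tead4, the TEAD first needed for trophectoderm, differed between the lineages by less than the fold in the EDG libraries. In EDG9.5 it had 91.8 CPM in trophoblast, 122 in endoderm and 115 in epiblast, and in EDG7.5 93.4, 119 and 134 CPM in the same lineages. By E5.5 trophoblast had 154 CPM (150 to 158), endoderm 51.7 (49.0 to 54.5) and epiblast 1.77 (1.27 to 2.40), the last from 41 UMIs. Reactivated lay between EDG9.5 and E5.5 in endoderm, at 82.5 CPM, and in epiblast, at 23.0 CPM, while in trophoblast it had 90.4 CPM, close to both EDG libraries. E5.5 epiblast was 64.9 times lower (46.7 to 92.4) than EDG9.5 epiblast and stood at 1.15% of E5.5 trophoblast. The giant cell and ectoplacental genes Prl3d1, Hand1 and Plac1 were read in E5.5 epiblast at 0.753%, 0.682% and 0.688% of their trophoblast level (and Ascl2 at 7.45%). The part of trophoblast RNA in the Tead4 value of E5.5 epiblast was not tested, and no Tead4 expression is called there. Within E5.5 trophoblast, the Prl3d1 cluster 5 had the highest Tead4, at 212 CPM, and cluster 12 (179 cells, Phlda2 and Ascl2) had 22.1 CPM.

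Tead2, a TEAD gene also used by early mouse embryos, is outside the 10 genes and showed the opposite order in epiblast. It had 79.0 CPM in EDG7.5 and 66.8 in EDG9.5, then 120 in Reactivated and 383 in E5.5 epiblast. In endoderm it had 35.9 CPM in EDG7.5 and 38.1 in EDG9.5, then 88.3 in Reactivated and 173 in E5.5. In trophoblast it had 447 CPM in EDG7.5 and 475 in EDG9.5, then 62.8 in Reactivated and 98.3 in E5.5, the same order as Tead1 there. Vgll3, a TEAD cofactor, was a trophoblast gene in these sums, with 75.5 CPM in EDG7.5 and 90.7 in EDG9.5, then 97.4 in Reactivated and 22.1 in E5.5, and at most 9.51 CPM in the other lineages.

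The classic target Ctgf was a gene of the EDG epiblast. There it had 396 CPM (373 to 420) in EDG7.5 and 321 (299 to 344) in EDG9.5, then 152 (138 to 168) in Reactivated, while E5.5 had 22.9 (21.0 to 24.9), and no 2 libraries overlapped. E5.5 epiblast was 14.0 times lower (12.5 to 15.7) than EDG9.5 and 6.64 times lower (5.82 to 7.59) than Reactivated. Reactivated was 2.11 times lower (1.87 to 2.38) than EDG9.5, a log2 ratio of -1.03 that was -0.69 under TMM scaling and -0.45 with cells thinned to 1000 UMIs. Endoderm had 18.1 CPM in EDG7.5 and 19.7 in EDG9.5, then 13.7 in Reactivated and 34.2 in E5.5, and 403 of the 928 UMIs of E5.5 endoderm came from cluster 6. Trophoblast had 7 UMIs in EDG7.5 and 6 in EDG9.5, then 2 in Reactivated and 51 in E5.5, or 1.005 to 2.12 CPM. Trophoblast was 187 times lower (90.3 to 465) than epiblast in EDG7.5 and 14.9 times lower (11.2 to 20.3) in E5.5. An opposite-strand gene model covers 665 of the 2861 exon bases of Ctgf, and the sources used here do not give the strand setting of the counting. The deposited tables list 5 to 21 UMIs for that model, against 456 to 1599 for Ctgf.

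Cyr61 did not follow Ctgf. In trophoblast it had 23.7 CPM (18.7 to 29.5) in EDG7.5 and 50.3 (43.9 to 57.3) in EDG9.5, then 85.9 (73.5 to 99.8) in Reactivated, while E5.5 had 104 (101 to 108). In endoderm it had 100.3 CPM in EDG7.5 and 173 in EDG9.5, then 73.3 in Reactivated and 184 in E5.5, with EDG9.5 and E5.5 as the high libraries. Epiblast stayed between 60.9 CPM in E5.5 and 80.4 in Reactivated, a range in which EDG7.5, EDG9.5 and Reactivated overlapped. The largest ratio of any of the 10 genes in EDG9.5 over EDG7.5 was that of Cyr61 in trophoblast, 2.12-fold (1.64 to 2.78), which is log2 0.84 after 10 CPM are added and so within the fold. Its ratio in endoderm was 1.72 (1.51 to 1.98). The immediate early list, which like Cyr61 responds quickly to stimulation, summed in endoderm to 2517 CPM in EDG7.5 and 3907 in EDG9.5, then 1079 in Reactivated and 739 in E5.5, and in trophoblast to 5165 in EDG7.5 and 5626 in EDG9.5, then 1629 in Reactivated and 2221 in E5.5. All 15 of its genes had UMIs in every sum. In endoderm and trophoblast it was higher in EDG9.5 than in EDG7.5 together with Cyr61, and lower in Reactivated endoderm together with it, and its part in the Cyr61 ratios was not tested; in E5.5 endoderm and in Reactivated and E5.5 trophoblast Cyr61 was high where this list was low. In epiblast the list summed to 2728 CPM in EDG7.5 and 3784 in EDG9.5, then 1456 in Reactivated and 393 in E5.5, while Cyr61 stayed between 60.9 and 80.4 CPM.

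The promoters of Cyr61 and Amotl2 hold the core of the TEAD motif close to the start, and these are shown because Cyr61 and Amotl2 are established TEAD targets that took different courses here. Each line gives the 250 bases before the RefSeq transcript start on GRCm38.p6, 5′ to 3′ on the gene's strand, with ACATTCC, the reverse complement of GGAATGT, in capitals.
Cyr61 (chr3:145649986-145650235, minus strand): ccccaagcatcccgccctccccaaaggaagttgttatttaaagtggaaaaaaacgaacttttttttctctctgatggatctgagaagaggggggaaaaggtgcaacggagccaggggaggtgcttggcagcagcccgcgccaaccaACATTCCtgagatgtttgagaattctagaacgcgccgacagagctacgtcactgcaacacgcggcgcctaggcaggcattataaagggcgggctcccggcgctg
Amotl2 (chr9:102717554-102717803, plus strand): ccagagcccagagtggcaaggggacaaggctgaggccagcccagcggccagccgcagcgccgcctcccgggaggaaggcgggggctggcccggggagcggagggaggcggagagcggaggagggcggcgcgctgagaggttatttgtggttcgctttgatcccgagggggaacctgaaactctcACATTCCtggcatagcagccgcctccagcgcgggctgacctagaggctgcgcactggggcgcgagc
The CATTCC part of the match begins 103 bases before the Cyr61 start and 65 bases before the Amotl2 start used here. The Amotl2 window lies inside the gene span given above, so this start is a transcript start within the gene. Yap1 also holds GGAATGT, at 141 bases before its start, and Wwtr1 holds GGAATG without the last T. GGAATG or CATTCC is present in 12.6% of 32851 such mouse windows and GGAATGT or ACATTCC, which contains the shorter motif, in 3.25%. Promoters of 7 of the 10 genes were at hand, and the windows of Amot, Lats2 and Nf2 hold neither. The only Amot window (chrX:145487640-145487889, minus strand) lies inside the gene span given above, so the 5′ end of that span was not searched. A match is a description of letters and not of a bound site.

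**Figure D3:**
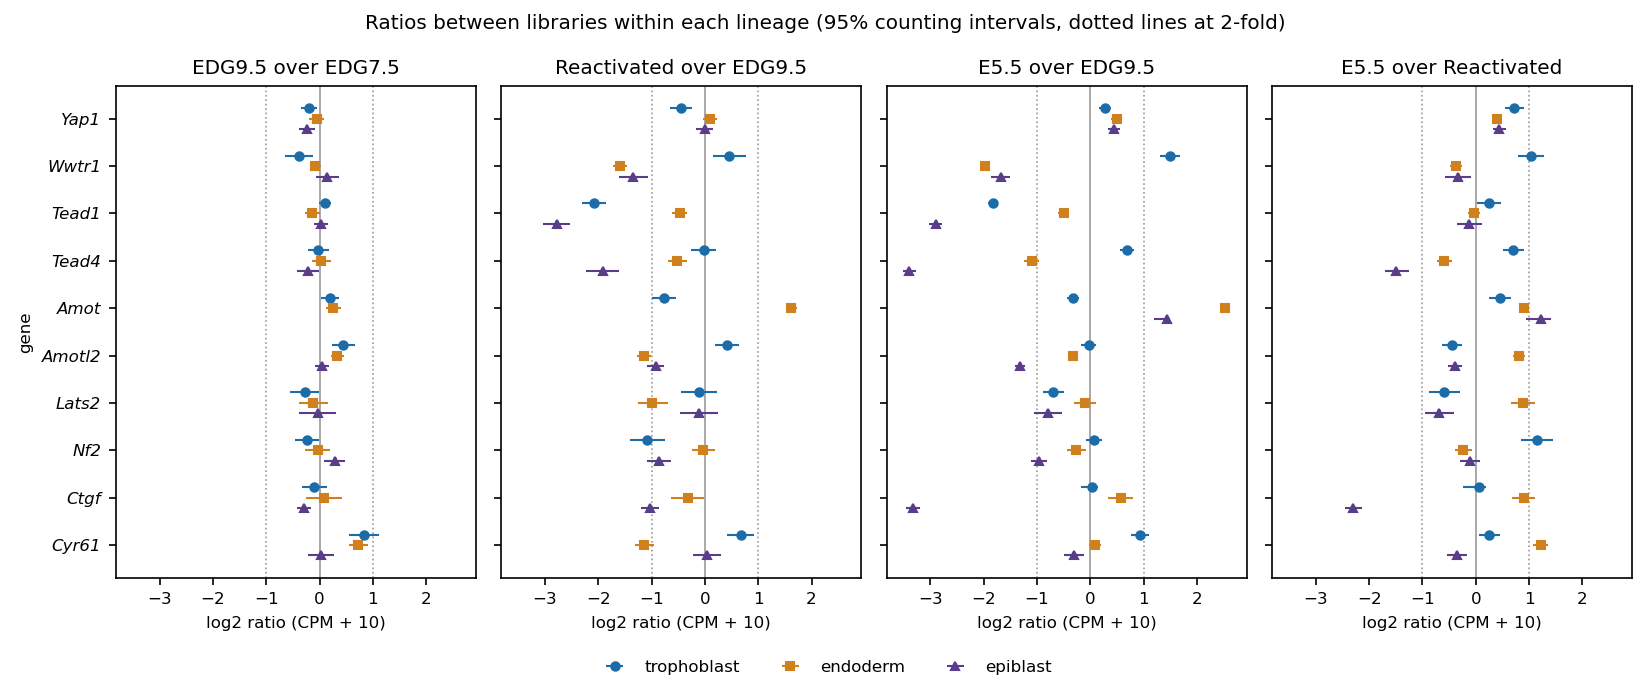
Log2 ratio of CPM + 10 (x axis) between libraries for each gene (y axis) in trophoblast, endoderm and epiblast (symbols), in 4 panels, with 95% counting intervals and dotted lines at 2-fold; genes under 10 UMIs in the 2 sums are not drawn. All points of EDG9.5 over EDG7.5 lie within 2-fold, and the epiblast points of Tead1, Tead4, Wwtr1 and Ctgf lie left of the dotted line in both Reactivated and E5.5 over EDG9.5.

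Counted over the 10 genes, EDG9.5 and EDG7.5 did not differ past the fold in any lineage. No gene was past it among 10 measured in trophoblast, where 0.129% of all genes were higher and 0.0774% lower, among 10 in endoderm (0.159% higher and 0.0558% lower) or among 9 in epiblast (0.0403% each way). The background here is so low that 0 of 10 is no result about these genes.

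Reactivated over EDG9.5, none of 9 measured genes was higher and 2 were lower in trophoblast (Tead1 and Nf2), where 9.85% of all genes were higher and 11.4% lower. Endoderm had 1 of 10 higher (Amot) and 3 lower (Wwtr1, Amotl2 and Cyr61), beside 5.59% and 10.5% of all genes. Under TMM scaling Amotl2 and Cyr61 both had -0.79 there and were within the fold. Epiblast had none of 9 higher and 4 lower (Wwtr1, Tead1, Tead4 and Ctgf), beside 7.26% and 16.4%. The median log2 ratio of the measured genes was -0.93 in epiblast, against -0.23 over all genes; TMM scaling moved the all-gene median to -0.037 there and from -0.16 to 0.016 in endoderm, so these ratios are to be read against those values.

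E5.5 over EDG9.5, trophoblast had 1 of 10 genes higher (Wwtr1) and 1 lower (Tead1), beside 11.4% and 8.24% of all genes. Endoderm had 1 of 10 higher (Amot) and 2 lower (Wwtr1 and Tead4), beside 6.07% and 8.52%; Tead4, at -1.103, was at -0.77 under TMM scaling. Epiblast had 1 of 10 higher (Amot, from the counts discussed above) and 5 lower (Wwtr1, Tead1, Tead4, Amotl2 and Ctgf), beside 7.01% and 12.5%. The median in epiblast was -1.14, against -0.04 over all genes. Reactivated and E5.5 share the EDG9.5 sums in these comparisons.

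E5.5 over Reactivated, trophoblast had 2 of 10 genes higher (Wwtr1 and Nf2) and none lower, beside 4.89% and 3.01% of all genes. The log2 ratio of Wwtr1, 1.03, was within the fold under 5 alternatives, at 0.97 under TMM scaling and 0.70 to 0.98 over the 5. Endoderm had 1 of 10 higher (Cyr61, 2.51-fold, 2.25 to 2.81) and none lower, beside 3.11% and 2.38%. Epiblast had 1 higher (Amot) and 2 lower (Tead4 and Ctgf) of 10, beside 3.10% and 4.47%. Tead1 and Wwtr1, which separated EDG9.5 from both later libraries in epiblast, had log2 ratios of -0.12 and -0.34 between those 2.

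Set against epiblast of the same library, trophoblast had fewer of the 10 genes lower and more higher in E5.5 than in the EDG libraries. The share of all genes lower fell too, from 17.4% in EDG7.5 and 16.9% in EDG9.5 to 4.79% in E5.5. The smaller number lower is therefore not read as a result about these genes. Trophoblast had 1 of 10 higher (Amot) and 4 lower (Wwtr1, Amotl2, Ctgf and Cyr61) in EDG7.5, beside 7.18% and 17.4% of all genes. In EDG9.5 it had 1 higher (Amot) and 4 lower (Wwtr1, Amotl2, Nf2 and Ctgf), beside 7.07% and 16.9%. In Reactivated it had 2 higher (Tead4 and Amot) and 2 lower (Nf2 and Ctgf), beside 8.43% and 13.2%. In E5.5 it had 4 higher (Wwtr1, Tead1, Tead4 and Amot) and 1 lower (Ctgf), beside 4.72% and 4.79%. TMM scaling left Wwtr1 at -0.54 and Cyr61 at -0.93 in EDG7.5 and Nf2 at -0.70 in EDG9.5, all within the fold, while it moved the all-gene median from -0.29 to 0.0065 in EDG7.5, from -0.27 to 0.042 in EDG9.5 and from -0.12 to 0.011 in Reactivated.

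Endoderm against epiblast gave 2 of 10 higher (Wwtr1 and Amot) and 1 lower (Ctgf) in EDG7.5, beside 5.72% and 6.93% of all genes, and 3 higher (Wwtr1, Amot and Cyr61) and 2 lower (Nf2 and Ctgf) in EDG9.5, beside 6.07% and 7.17%. In Reactivated 4 were higher (Wwtr1, Tead1, Tead4 and Amot) and 1 lower (Ctgf), beside 10.8% and 8.63%, and in E5.5 5 were higher (the same 4 and Cyr61) and none lower, beside 8.32% and 4.99%. Amot and Wwtr1 were the 2 genes higher in endoderm in all 4 libraries.

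The rest of the pathway was read from lists. Of 13 Hippo kinases and upstream regulators, none passed the fold in EDG9.5 over EDG7.5 in any lineage. Reactivated over EDG9.5, 1 was higher and 2 lower in trophoblast, 5 lower in endoderm and 6 lower in epiblast, with medians of -0.43, -0.79 and -0.78, against -0.079, -0.16 and -0.23 over all genes. Of all genes, 11.4% were lower in trophoblast, 10.5% in endoderm and 16.4% in epiblast in this comparison, and 9.85%, 5.59% and 7.26% were higher. E5.5 over EDG9.5, 3 were higher and 1 lower in trophoblast, 2 lower in endoderm and 3 lower in epiblast, beside 8.24%, 8.52% and 12.5% of all genes lower and 11.4%, 6.07% and 7.01% higher. Wwc2, of the KIBRA family that acts upstream of LATS, had 466 CPM in EDG7.5 and 426 in EDG9.5, then 42.9 in Reactivated and 59.9 in E5.5 epiblast. Map4k4, a kinase that phosphorylates LATS in parallel with MST, had 18.5 CPM in EDG7.5 and 8.89 in EDG9.5, then 40.2 in Reactivated and 304 in E5.5 trophoblast. Taok1, which activates MST, had 196 CPM in EDG9.5 epiblast, and 52.3 in Reactivated and 69.7 in E5.5.

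Of 12 polarity and junction proteins that bind AMOT or LATS, 5 were lower in Reactivated over EDG9.5 trophoblast, 2 in endoderm and 3 in epiblast, where 2 were higher. Beside 11.4%, 10.5% and 16.4% of all genes lower, the counts of lower genes in endoderm and epiblast are near the background. Of all genes, 7.26% were higher in epiblast. Pard3, a polarity scaffold, had 396 CPM in EDG7.5 and 435 in EDG9.5, then 86.9 in Reactivated and 86.4 in E5.5 trophoblast, and both later libraries were below EDG9.5 in the other lineages too, with 228 CPM in EDG9.5, then 89.0 in Reactivated and 83.7 in E5.5 endoderm and 296 in EDG9.5, then 68.7 in Reactivated and 94.5 in E5.5 epiblast. E5.5 over EDG9.5, 4 of the 12 were lower in trophoblast, 3 higher and 1 lower in endoderm and 1 lower in epiblast, beside 8.24%, 8.52% and 12.5% of all genes lower and 6.07% higher in endoderm.

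A YAP/TEAD target signature of 18 genes, known mainly from human cells and holding none of the 10 genes, had ratios both ways. In Reactivated over EDG9.5 it had 1 higher and 1 lower of 8 measured in trophoblast, 5 lower of 12 in endoderm, and 1 higher and 4 lower of 14 in epiblast, where all genes gave 9.85% higher and 11.4% lower in trophoblast, 10.5% lower in endoderm, and 7.26% higher and 16.4% lower in epiblast. The trophoblast count is at the background. In E5.5 over EDG9.5 it had 3 higher and 2 lower of 13 in trophoblast, 2 higher and 3 lower of 16 in endoderm, and 4 lower of 14 in epiblast, beside 11.4% and 8.24%, 6.07% and 8.52%, and 12.5% of all genes. Myof, a membrane repair gene, had 195 CPM in EDG7.5 and 195 in EDG9.5, then 59.3 in Reactivated and 38.5 in E5.5 trophoblast. Crim1, which encodes a transmembrane BMP-binding protein, had 0.910 CPM in EDG7.5 and 1.78 in EDG9.5, then 67.3 in Reactivated and 172 in E5.5 trophoblast, an increase beside that of Cyr61. Nt5e, an ectonucleotidase gene, had 52.7 CPM in EDG9.5 endoderm, and 3.43 in Reactivated and 0.959 in E5.5.

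The trophectoderm genes placed downstream of TEAD4 and YAP were lower in trophoblast of both later libraries. Cdx2 had 346 CPM in EDG7.5 and 346 in EDG9.5, then 64.8 in Reactivated and 53.5 in E5.5 trophoblast, and Gata3 had 869 in EDG7.5 and 1282 in EDG9.5, then 209 in Reactivated and 157 in E5.5. Tead4 itself was not lower there, at 90.4 CPM in Reactivated and 154 in E5.5, against 91.8 in EDG9.5. Other TEAD genes were lower in the same trophoblast sums. Tead1 had 331 CPM in EDG9.5, then 70.8 in Reactivated and 86.0 in E5.5, and Tead2 had 475, 62.8 and 98.3 CPM in that order. The part of TEAD levels or of cluster composition in the Cdx2 and Gata3 values was not tested. Sox2, which nuclear YAP keeps off in outer cells of the early embryo, had 1364 CPM in EDG7.5 and 1789 in EDG9.5, then 533 in Reactivated and 116 in E5.5 epiblast.

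The genes with the levels most like those of the 10 genes were found by Pearson correlation of log2(CPM + 10) over the 12 sums of lineage and library, among 6213 genes that reach 50 CPM. For Amot these were Nxf7 (r = 0.98), Vamp8 (0.96) and Clic1 (0.96), and for Ctgf Cdo1 (0.97), Pla1a (0.97) and Zfp459 (0.96). For Amotl2 they were Mageh1 (0.94), Cachd1 (0.93) and Ntn1 (0.93), for Tead4 Tln1 (0.96) and Junb (0.89), and for Cyr61 Tnfrsf21 (0.83), Stil (0.82) and Scarb1 (0.81). Among the 10 genes themselves Tead1 and Tead4 had r = 0.71, Amotl2 and Ctgf 0.79, Nf2 and Ctgf 0.77, Amot and Ctgf -0.64, and Ctgf and Cyr61 0.16. The 12 sums share 4 libraries and are not independent, so these values describe the sums and carry no p.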

How the data were processed

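Single-cell libraries were measured in 4 pools of embryos, 1 per stage. The authors deposited UMI counts per gene and barcode, per the submitters' processing notes, which name mm10, STAR 2.7.1a, featureCounts 1.6.4, Subread and UMI-tools 1.0.1. Gene annotation, counting strand and barcode choice were not given in the sources used here. Totals were 9620232 UMIs in EDG7.5 and 10994918 in EDG9.5, then 9270833 in Reactivated and 87507141 in E5.5, over 1726, 2566, 677 and 9560 barcodes; library pairs shared 1 to 27 barcodes.

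Cells needed 1000 UMIs, 500 genes and under 25% mitochondrially encoded UMIs. Scrublet in scanpy 1.11.5 removed 12, 7, 2 and 278 doublets. Each library was clustered on 2000 variable genes without the 10 genes (30 principal components, 15 neighbours, Leiden resolution 1), and clusters took the marker list that led by 0.5 log2 with 3 markers at 20 CPM; all cells were named, and the names are rebuilt, not the authors'. In 4 clusters the 10 top genes held more markers of another list than of their own (Msx1 in EDG7.5 cluster 6 and EDG9.5 cluster 3, Slc7a3 in EDG7.5 cluster 7, stroma genes in Reactivated cluster 3); values without them, an alternative added after the clusters were seen, are in the closing section. UMIs were summed per lineage and library, with exact Poisson intervals for CPM and exact conditional binomial intervals for ratios. Of the other lists, the 3 genes with the highest mean CPM and genes past 4-fold could be named; other named genes were chosen after their values were seen. A few genes that these rules name are not reported here. The ratios and their intervals were tested on simulated sums with known ratios, and the filters, clustering and lineage names were not. The simulated sums held Poisson counting error only, which the intervals assume, so they cannot check the spread between cells or libraries. Members and lists were chosen with earlier results of these data known. Alternatives were other UMI, mitochondrial and doublet filters, Leiden resolutions 0.5 and 2, the 10 genes among the variable genes, TMM factors (edgeR 4.0.16), totals without ribosomal protein and mitochondrial genes, means over cells, cells thinned to 1000 UMIs, 1 or 50 CPM added, and a minimum of 50 UMIs or none. RefSeq promoters (GRCm38.p6) were used for sequence alone.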

Additional observations from a re-analysis of the deposited data

Results flagged for a closer look

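Wwtr1 stood in opposite directions in different lineages under the same contrast. In E5.5 over EDG9.5 its log2 ratio was 1.49 in trophoblast, -1.97 in endoderm and -1.68 in epiblast. The difference between the lineages was not tested, because each stage has 1 library. Within E5.5 trophoblast Wwtr1 ran from 51.0 CPM in cluster 4 to 188 CPM in cluster 13. The part of cluster composition in the trophoblast ratio was not tested.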

How the results depend on the processing

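Of the 20 medians over the 10 genes, 12 between libraries and 8 between lineages, all stayed within the 95% order-statistic interval of the reported median under each of the 15 alternatives and the 1 added later. With so few genes these intervals span nearly all of the ratios, so this is a weak check. Among the 64 gene ratios past the fold no sign changed under any alternative run. Of these alternatives, the filter at 500 UMIs and 250 genes kept the same cells as the reported filters, so it could change no value. A minimum of 50 UMIs or none could change no gene ratio, only which genes entered a median. The number within the fold was 8 under TMM factors, 26 with 50 CPM added, 3 with the mitochondrial limit at 10%, 3 of 63 with cells thinned to 1000 UMIs, 3 with totals without ribosomal protein and mitochondrial genes, 2 with means over cells, and 1 each at Leiden resolution 0.5, with doublets kept and without the 4 clusters led by another list. Without those clusters all 64 stayed within 1.5-fold. Wwtr1 in trophoblast over epiblast of EDG7.5, at -1.002, was the ratio most often within the fold (-0.88 with doublets kept). The cause was not tested. With 1 CPM added 17 of the 64 ratios differed by more than 1.5-fold, all of them larger, and with 50 CPM added 31 did, all of them smaller, by the construction of the added value. No paired analysis was possible because each stage has 1 library. Ratios resting on 1 to 7 epiblast UMIs of Amot, or 2 to 7 trophoblast UMIs of Ctgf, are limited by depth.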
